A study of Homo sapiens with 8 samples.

Results

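Cells that carried single gene knockouts were followed from the start of erlotinib treatment (T0) to its end 72 h later, and the change of each knockout over that interval, its conditional essentiality, was measured. The 2 erlotinib libraries and the 2 T0 libraries were taken by their labels, which is 4 of the 8 libraries in the series. PC9 is a non-small cell lung cancer line whose growth depends on an activating mutation of the receptor EGFR. The PC9-Cas9 cells used here were a stable population selected for expression of the Cas9 nuclease and not a single clone. They were infected with TKOv3, a pooled library of single guide RNAs with up to 4 guides for each human gene. T0 cells were collected just before drug was added and received none, and erlotinib cells were kept for 72 h in 10 µM of this EGFR kinase inhibitor. The other groups, also with 2 libraries each, were untreated cells kept for 72 h in the DMSO vehicle and cells kept for 72 h in 0.1 µM osimertinib, a covalent inhibitor of mutant EGFR. The methods state that cultures without drug were split 1 day into the treatment, and that dead cells were not harvested at 72 h.

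Activated EGFR recruits adaptor proteins that switch on the RAS-MAPK cascade, PI3K with AKT and mTOR, phospholipase C-gamma and STAT proteins. When the kinase is blocked, these signals fall, division slows, and some cells die by apoptosis, in which BAX and BAK open the outer mitochondrial membrane, cytochrome c leaves, and APAF1 assembles with caspase-9 into the apoptosome. Adhesion to the matrix through integrins and the transcription factor YAP are known as further inputs to growth and survival of epithelial cells. In a pooled screen, a knockout that slows growth or makes cells die lowers the share of reads of its guides, and one that speeds growth or spares cells raises it. Slower growth and more death cannot be told apart from guide abundance at 2 time points, and each value is relative to the other knockouts in the pool.

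Values are given as log2 fold changes (L2FC) in abundance from T0 to erlotinib, relative to the median of all tested genes, ± the standard error (SE) of a linear model (limma) fitted to the 8 libraries, with n = 2 libraries in each group. Library values are on the same log2 scale, with the mean of the T0 libraries set to 0, so the T0 values of a gene are the same size with opposite signs. A gene's value is the median over its guides, and a gene was called where its limma p, adjusted over all 17760 genes tested by the Benjamini-Hochberg procedure, was under 0.05. The libraries held 32096281 to 39200466 reads, with a median of 445 to 549 reads per guide. Counts of the T0 pair and of the erlotinib pair differed beyond sampling noise, by a chi-square of 2.71 and 3.20 for each degree of freedom, which does not show whether they came from separate cultures. The choice of reference matters. The typical targeting gene fell by 0.15 against the 138 non-targeting guides kept, which match no site in the genome, so changes are reported relative to that shift. The SD of the L2FC of single non-targeting guides was 0.12, and the edgeR guide test called none of them lower and 6 higher.

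Knockouts of 1907 of the 17760 genes (10.7%) became rarer under erlotinib than at T0 and those of 530 (2.98%) became more frequent. At an unadjusted p under 0.05 the counts were 3018 and 1706. Relative to non-targeting guides, 7281 genes (41%) were lower and 54 (0.304%) were higher, so the share of calls that were lower moved from 78.3% to 99.3%. By that reference 111 of 327 olfactory receptor genes, which PC9 cells are not known to need, were lower as well. The shares of 10.7% and 2.98% are the background for every count of list members called against T0 below. Losses were larger than gains. The L2FC was at or under -1 for 112 genes and at or under -0.5 for 685, while it was at or over 0.25 for 231 and at or over 0.5 for 13. In the edgeR test of single guides, 3625 of 67526 (5.37%) were lower and 935 (1.38%) higher, and in 197 genes every guide kept was called lower. The count of higher genes moved with each of the 4 libraries: 155 were called without T0 library 1, 185 without T0 library 2, 195 without erlotinib library 1 and 247 without erlotinib library 2, while the lower calls numbered 1363 to 1491 without any of these libraries. The guide counts also moved, to between 1911 and 2083 lower and between 234 and 362 higher.

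**Figure D1:**
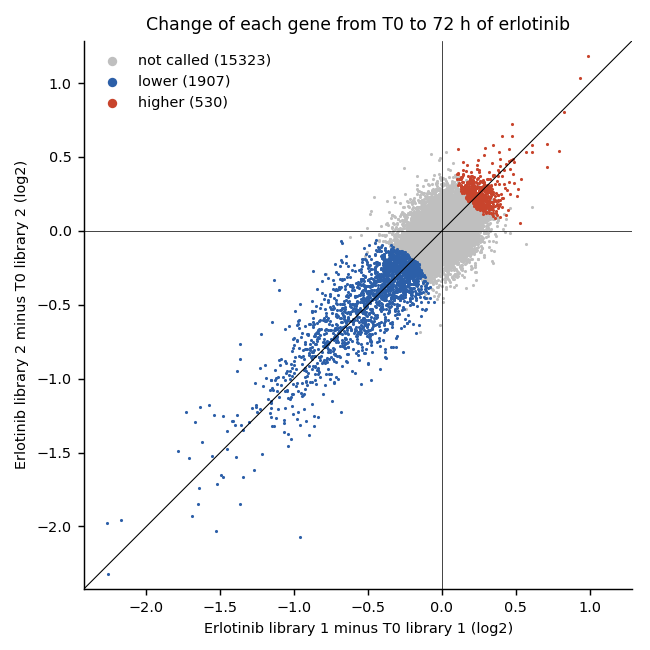
Each point is 1 of the 17760 genes, with the change from T0 library 1 to erlotinib library 1 on the x axis and from T0 library 2 to erlotinib library 2 on the y axis, both in log2 units, and colours give the call. The library numbers are used here only as names, and the 2 changes were correlated across genes with r = 0.796. The depleted genes spread along the diagonal to below -2, while nearly all enriched genes lie under 0.5.

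Knockout of EGFR itself became rarer, by less than it did without drug. EGFR lay at -0.34 and -0.31 in the erlotinib libraries, with T0 libraries at 0.05 and -0.05, untreated at -0.80 and -0.71, and osimertinib at -0.27 and -0.15. The T0 and erlotinib values did not overlap, and the untreated values were below both. The L2FC from T0 was -0.33 ± 0.07 (limma adjusted p = 0.0029), and cells without EGFR were more frequent under erlotinib than in untreated by 0.43 (limma adjusted p = 0.000755). Guides to EGFR had few reads, between 110 and 414 each at T0, and none of the 4 passed the edgeR test alone. Without T0 library 1 the EGFR value was -0.25 and no longer passed (limma adjusted p = 0.101), and with the lowest 10% of guides left out it was -0.18 (limma adjusted p = 0.0633).

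Among the other receptors of the family, the co-receptor ERBB2 passed narrowly (-0.23 ± 0.07, limma adjusted p = 0.038) and lost the call without either T0 library, either erlotinib library or untreated library 1, at values between -0.26 and -0.21. ERBB3, a receptor with weak kinase activity that binds PI3K, had a value of -0.02 ± 0.07 and did not pass. In all, 2 of 9 tested receptors and ligands of the EGFR family fell and none rose, with a median of 0.03, or -0.12 against non-targeting guides. Of 8 adaptors, GRB2, which links the receptor to RAS, fell by 0.43 ± 0.11 with erlotinib libraries at -0.23 and -0.63, and PTPN11, the phosphatase SHP2, fell by 0.22 ± 0.06. GRB2 was at -0.33 without T0 library 2 and at -0.22 without erlotinib library 2 and passed in neither case. PTPN11 lost its call when any of the 4 T0 and erlotinib libraries was left out. GAB1, a scaffold that recruits PI3K, rose by 0.27 ± 0.07, and CBL, the ubiquitin ligase that sends EGFR for degradation, rose by 0.20 ± 0.06. Both of these rises rested on the gene reference and were 0.12 and 0.05, not called, against non-targeting guides. Without erlotinib library 2 or without T0 library 2, no adaptor was called in either direction, and without T0 library 1 or erlotinib library 1 the counts were 1 lower and 0 higher, and 1 and 1. Of 12 tested neighbours of EGFR on its chromosome, 3 fell: the chaperonin subunit CCT6A (-0.79 ± 0.09), the translocon subunit SEC61G (-0.59 ± 0.09) and CHCHD2 (-0.26 ± 0.07), against 10.7% of all genes, and their median was -0.12. CHCHD2 was not called without T0 library 2 or erlotinib library 1. Copy number at this locus was not measured here, and its part in the EGFR value was not tested.

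Few single knockouts of activators of the RAS-MAPK cascade changed. Of 12 activators, SHOC2, a scaffold that helps activate RAF, fell by 0.32 ± 0.07, and no other was called. Without T0 library 2 SHOC2 was not called either. Genes were knocked out singly, so the lack of calls does not show that the cascade is not needed. Of 15 suppressors of the pathway, 6 were called higher, against 2.98% of all genes, and none lower, and their median was 0.10, or -0.05 against non-targeting guides. They included SPRY2, an inhibitor of receptor signals to RAS (0.29 ± 0.07), the transcriptional repressors CIC (0.26 ± 0.07) and ETV3 (0.24 ± 0.06), and SPRED1, which brings the RAS inhibitor NF1 to the membrane (0.23 ± 0.06). The count depended on the libraries: 2 were called higher without T0 library 1, 1 without T0 library 2, 2 without erlotinib library 1 and 2 without erlotinib library 2, and against non-targeting guides none was called higher.

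Along the PI3K-AKT-mTOR pathway, knockouts of several kinases were lost and knockouts of both TSC genes gained. PDPK1, the kinase that activates AKT, was at -1.19 and -0.98 in the erlotinib libraries, with T0 at -0.04 and 0.04, and fell by 1.08 ± 0.08. Its 4 guides fell to between 33.9% and 44.7% of their T0 reads in raw counts, and each was called lower. PDPK1 was lower under erlotinib than in untreated by 0.55 (limma adjusted p = 0.000534). Of 10 PI3K and AKT genes 3 fell, against 10.7% of all genes, the others being the catalytic subunits PIK3CA (-0.41 ± 0.08) and PIK3CB (-0.30 ± 0.09), and none rose. The call of PIK3CB was lost without T0 library 2 or erlotinib library 1. Each of the AKT genes was measured and none passed, which for single knockouts does not show that AKT is not needed.

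Of 8 genes of the mTOR complexes and their output, EIF4E among them, 6 fell and none rose, with a median of -0.37. RICTOR, which defines mTOR complex 2, fell by 0.56 ± 0.07, and MLST8, a subunit of both complexes, by 0.40 ± 0.07. EIF4E, the cap-binding protein that mTOR releases from its inhibitors, fell by 0.53 ± 0.07. MTOR was at -0.42 and -0.44 in the erlotinib libraries, -0.83 and -0.95 in untreated and -0.71 and -0.72 under osimertinib. The erlotinib values lay between those of T0 and of the other groups, without overlap. The difference from untreated was 0.46 (limma adjusted p = 0.000244) for MTOR and -0.40 (limma adjusted p = 0.0021) for RICTOR.

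TSC1 and TSC2 form the complex that holds mTOR complex 1 in check. TSC2 was at 0.62 and 0.52 in the erlotinib libraries, against 0.01 and -0.01 at T0, 0.02 and 0.11 in untreated and 0.69 and 0.59 under osimertinib. Its L2FC was 0.57 ± 0.07 (limma adjusted p = 7.82e-06), and each of its 4 guides was called higher. TSC1 rose by 0.36 ± 0.07, with 1 of 4 guides called. Both were also higher than in untreated, by 0.50 for TSC2 and 0.38 for TSC1. STK11, the kinase LKB1, which restrains mTOR through AMPK, fell by 0.42 ± 0.06. Of 13 genes of Ragulator, the Rag GTPases and GATOR2, which carry amino acid signals to mTOR, the nuclear pore and GATOR2 subunit SEC13 fell (-0.43 ± 0.08), but was -0.05 and not called when the lowest 10% of guides was left out. By the direct test 7 of these 13 were higher than in untreated and none lower, against 4.18% and 2.83% of all genes. Of 6 GATOR1 and KICSTOR genes none was called.

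The branch through phospholipase C-gamma, PKC and NF-kappaB had calls in both directions. PLCG1, which makes the messenger diacylglycerol, was at 0.46 and 0.42 in the erlotinib libraries and rose by 0.44 ± 0.07 (limma adjusted p = 0.000185), with each of its guides between 0.35 and 0.49. Of 19 genes 5 fell and 4 rose, against 10.7% and 2.98% of all genes, with a median of -0.04. The falls were in the NF-kappaB part: the IkappaB kinases CHUK (-0.54 ± 0.08) and IKBKB (-0.40 ± 0.07), and the subunits RELA (-0.37 ± 0.07) and RELB (-0.29 ± 0.06). Rises other than PLCG1 were in inhibitors of the non-canonical arm, BIRC2 (0.29 ± 0.07), TRAF2 (0.26 ± 0.08) and TRAF3 (0.25 ± 0.06), which lost their calls without erlotinib library 1, and these were not called against non-targeting guides (0.14, 0.11 and 0.10). Without erlotinib library 1 the counts were 3 lower and 1 higher, and without T0 library 1 they were 5 and 2. CHUK, IKBKB and RELA were also lower than in untreated, by 0.47, 0.47 and 0.34 on the log2 scale.

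Of 15 receptors and kinases known to bypass EGFR, 4 fell, against 10.7% of all genes, and none rose. FGFR1, a receptor for fibroblast growth factors, was at -0.85 and -0.93 in the erlotinib libraries, against 0.02 and -0.02 at T0 and 0.09 and 0.02 in untreated, and fell by 0.89 ± 0.07 (limma adjusted p = 6.65e-08). FRS2, the adaptor that docks on FGF receptors, fell by 0.55 ± 0.08. FGFR1 was lower than in untreated by 0.95 and lower than under osimertinib by 0.30 (limma adjusted p = 2.92e-07 and 0.0394). The receptor kinase AXL fell by 0.30 ± 0.07, less than under osimertinib, with a difference of 0.34 (limma adjusted p = 0.0244). IGF1R fell by 0.22 ± 0.06. Without T0 library 1 both AXL and IGF1R lost their calls. AXL also lost its call without erlotinib library 2, and IGF1R without T0 library 2 or erlotinib library 1. Of 12 JAK-STAT genes, STAT5B (-0.45 ± 0.11) and the feedback inhibitor SOCS3 (-0.37 ± 0.07) fell and none rose, a share near the 10.7% of all genes. STAT5B was not called without T0 library 1 or erlotinib library 2, or when no guide was filtered out.

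Genes of matrix adhesion were among the most depleted. TLN1, talin, which binds integrin tails and links them to actin, was at -2.19 and -2.05 in the erlotinib libraries, against 0.07 and -0.07 at T0, -0.49 and -0.63 in untreated and -1.83 and -2.10 under osimertinib. The erlotinib and T0 values did not overlap, and the untreated values lay between them. TLN1 fell by 2.12 ± 0.09 from T0 (limma adjusted p = 1.9e-10) and differed from untreated by -1.57 (limma adjusted p = 1.68e-08). ITGB1, the integrin beta-1 subunit, was at -1.01 and -1.04 in the erlotinib libraries, close to T0 in untreated (0.01 and -0.18), and fell by 1.02 ± 0.08. Each of its 4 guides was called lower.

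Of 22 genes for integrins, talin, kindlin and their partners, 11 fell and none rose, against 10.7% of all genes lower, and their median was -0.24. TNS3, a tensin that binds integrin tails, fell by 1.21 ± 0.08, and the kindlin FERMT2, an integrin activator, by 0.87 ± 0.13. Between 10 and 11 of these falls were called with any 1 of the T0 or erlotinib libraries left out. In direct comparison with untreated, where 2.83% of all genes were lower, 9 of the 22 were lower and none higher.

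ILK is a pseudokinase that joins integrin adhesions to actin through PINCH and parvin. Its guides had 665, 378 and 536 reads in T0 library 1 and 110, 61 and 163 reads in erlotinib library 1. In T0 library 2 they had 575, 363 and 559 reads, and in erlotinib library 2 they had 124, 39 and 172. Summed over the libraries, the guides ended at 13.5% to 30.6% of their T0 reads in raw counts. The gene value was -2.03 and -2.10 in the erlotinib libraries and -0.45 and -0.54 in untreated, and the L2FC from T0 was -2.06 ± 0.09 (limma adjusted p = 1.98e-10). Of 6 genes of this complex 4 fell: ILK, the PINCH protein LIMS1 (-1.10 ± 0.08), its partner RSU1 (-0.71 ± 0.07) and the parvin PARVA (-0.34 ± 0.07). All 4 were lower than in untreated, against 2.83% of all genes, and PARVA lost its call from T0 without erlotinib library 1.

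RAC1 is a small GTPase that drives actin branching through the WAVE and Arp2/3 complexes. It was at -1.44 and -1.78 in the erlotinib libraries, -0.37 and -0.63 in untreated and -1.31 and -1.41 under osimertinib. RAC1 fell by 1.61 ± 0.10 from T0 and differed from untreated by -1.11 (limma adjusted p = 2.51e-06), with 2 of 3 guides called. PKN2, a kinase activated by small GTPases, fell by 1.46 ± 0.09, ACTR2, an Arp2/3 subunit, by 0.81 ± 0.08, and NCKAP1, a WAVE complex subunit, by 0.64 ± 0.07. In all 8 of 16 genes fell and none rose, with a median of -0.22, and 7 or 8 were called without any 1 of the T0 or erlotinib libraries. In the direct test against osimertinib, where 1.05% of all genes were higher, 4 of the 16 were higher under erlotinib, among them ACTR2 by 0.34 (limma adjusted p = 0.039).

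YAP1 and WWTR1 (TAZ) are coactivators that bind TEAD factors and are held out of the nucleus by the Hippo kinases. YAP1 was at -0.91 and -0.89 in the erlotinib libraries and at 0.14 and 0.07 in untreated, and fell by 0.90 ± 0.07 from T0 (limma adjusted p = 1.49e-07). WWTR1 was at -1.13 and -1.09 in the erlotinib libraries and at -0.26 and -0.39 in untreated, and fell by 1.11 ± 0.07. The untreated and erlotinib values did not overlap for either gene, and the direct differences were -1.01 for YAP1 and -0.79 for WWTR1 (limma adjusted p = 3.35e-07 and 1.7e-06). Of 6 coactivator and TEAD genes 5 fell, with TEAD1 at -0.45 ± 0.08 and TEAD4 at -0.34 ± 0.06. TEAD1 was 0.55 higher under erlotinib than under osimertinib (limma adjusted p = 0.0025).

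Among genes that restrain YAP, NF2, the membrane scaffold merlin that activates the LATS kinases, was enriched. Its 4 guides had 888, 1240, 358 and 357 reads in T0 library 1, and 1426, 1952, 478 and 517 in erlotinib library 1. NF2 was at 0.84 and 0.79 in the erlotinib libraries, -0.20 and -0.20 in untreated and 1.01 and 1.04 under osimertinib. The L2FC was 0.82 ± 0.06 from T0 (limma adjusted p = 6.45e-08) and 1.01 against untreated. Of 19 Hippo suppressors 6 rose and none fell, against 2.98% of all genes higher. They included KIRREL, a membrane protein of this pathway (0.51 ± 0.06), the kinase LATS2, which phosphorylates YAP (0.46 ± 0.06), and TAOK2, a kinase upstream of it (0.40 ± 0.08). The list median was 0.14, and -0.01 against non-targeting guides, where 4 were called higher and 2 lower. Without 1 of the T0 or erlotinib libraries 4 to 6 were called higher.

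STRIPAK is a phosphatase complex that opposes the Hippo kinases. Of 12 genes 5 fell, among them MOB4 (-0.94 ± 0.09), SLMAP (-0.65 ± 0.07) and the scaffold PPP2R1A (-0.57 ± 0.09). PDCD10, a member that also binds GCKIII kinases, rose by 0.67 ± 0.08, at 0.72 and 0.61 in the erlotinib libraries, and each of its 4 guides was called higher. The list median was -0.13.

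Knockouts of the apoptosome were enriched. APAF1 was at 0.63 and 0.51 in the erlotinib libraries, against -0.08 and 0.08 at T0, 0.00 and -0.01 in untreated and 0.50 and 0.49 under osimertinib. CASP9, the caspase it activates, was at 0.57 and 0.53 in the erlotinib libraries, 0.06 and 0.06 in untreated and 0.48 and 0.42 under osimertinib. For both genes the erlotinib values lay above T0 and untreated without overlap, and each of the 8 guides was called higher. The L2FC was 0.57 ± 0.07 for APAF1 and 0.55 ± 0.06 for CASP9 (limma adjusted p = 1.2e-05 and 4.59e-06). CYCS, cytochrome c, had 1 guide kept and was not tested as a gene. That guide was called higher, with an L2FC of 0.47 (edgeR adjusted p = 3.36e-05).

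BAX and BAK1 differed in direction. BAX was at 0.43 and 0.38 in the erlotinib libraries and -0.11 and -0.07 in untreated, and rose by 0.40 ± 0.07 (limma adjusted p = 0.000508). BAK1 was at -0.36 and -0.34 in the erlotinib libraries and -0.08 and -0.20 in untreated, and fell by 0.35 ± 0.06 (limma adjusted p = 0.000924). Its guides ranged from -0.42 to -0.19, and only the lowest passed the edgeR test (edgeR adjusted p = 0.041). BAK1 was not called lower than in untreated by the direct test. The BH3-only genes BCL2L11 (BIM) and BMF, which activate BAX and BAK or free them from BCL2 proteins, rose by 0.30 ± 0.08 and 0.26 ± 0.07. Neither was called against non-targeting guides, at 0.15 and 0.11. BCL2L11 lost its call without any 1 of the T0 and erlotinib libraries, and BMF without T0 library 1 or either erlotinib library. Of 11 genes in this group 3 rose and 1 fell, with a median of 0.12, or -0.03 against non-targeting guides. By the direct test 5 of the 11 were higher than in untreated and none lower, against 4.18% and 2.83% of all genes. The higher calls numbered 1 without T0 library 1, 2 without T0 library 2, 1 without erlotinib library 1 and 2 without erlotinib library 2.

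Among inhibitors of apoptosis, BCL2L1, which encodes BCL-XL, was at -1.20 and -1.09 in the erlotinib libraries, 0.06 and -0.06 at T0, 0.10 and 0.06 in untreated and -0.70 and -0.76 under osimertinib. The erlotinib values were the lowest of the 4 groups without overlap. BCL2L1 fell by 1.15 ± 0.07 from T0 (limma adjusted p = 5.32e-09) and differed from untreated by -1.22 and from osimertinib by -0.42 (limma adjusted p = 1.68e-08 and 0.00545). Each of its 4 guides was called lower. MARCH5, a mitochondrial ubiquitin ligase, fell by 0.84 ± 0.08 and was 0.85 below untreated on the log2 scale. MCL1, another protein of the BCL2 family, fell by 0.66 ± 0.10, but its guides ranged from -1.90 to -0.14 and 1 of 3 was called. In all 5 of 10 genes fell, including BIRC5, survivin (-0.24 ± 0.08), whose call was lost without T0 library 1, T0 library 2 or erlotinib library 1. The count was 3 without T0 library 2 and 3 without erlotinib library 1, and the median was -0.16.

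**Figure D2:**
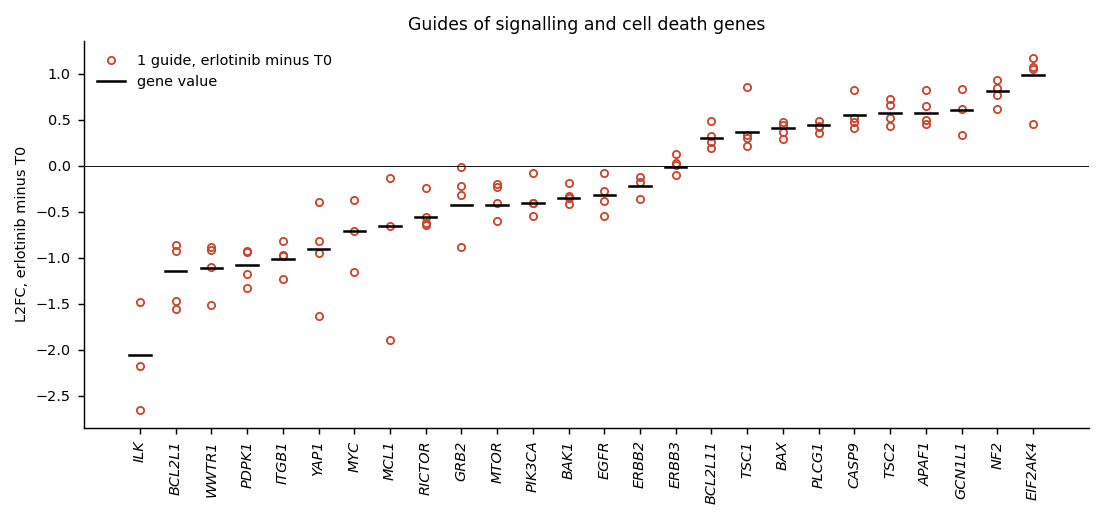
For each signalling or cell death gene, circles give the L2FC of each guide kept from T0 to erlotinib on the y axis (edgeR, log2) and the bar gives the gene value, with genes ordered by that value from left to right. All guides of ILK lie below -1.4, from -2.66 to -1.48, and all guides of EIF2AK4, NF2, APAF1 and CASP9 lie above 0.4. Guides of ILK, MCL1 and YAP1 differ among themselves by more than 1.

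The integrated stress response couples amino acid shortage to translation. GCN2, encoded by EIF2AK4, senses uncharged tRNA with the help of GCN1 (GCN1L1), and phosphorylates eIF2 so that ATF4 is made. The 4 guides to EIF2AK4 had 360, 682, 479 and 331 reads in T0 library 1, and 702, 1210, 561 and 551 in erlotinib library 1. In T0 library 2 they had 471, 735, 509 and 264 reads, and 784, 1303, 592 and 592 in erlotinib library 2. All 4 were called higher. The gene was at 0.93 and 1.04 in the erlotinib libraries, 0.12 and 0.13 in untreated and 0.03 and 0.12 under osimertinib, so only the erlotinib values stood apart. EIF2AK4 rose by 0.98 ± 0.07 from T0 (limma adjusted p = 1.47e-08), and was higher than in untreated by 0.86 and higher than under osimertinib by 0.91 (limma adjusted p = 4.34e-07 and 2.46e-06).

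GCN1L1 was at 0.50 and 0.70 in the erlotinib libraries, -0.22 and 0.02 in untreated and -0.21 and -0.23 under osimertinib, and rose by 0.60 ± 0.08. It too was higher than under osimertinib, by 0.82 (limma adjusted p = 0.000107). ATF4 rose by 0.21 ± 0.06, and lost its call without any 1 of the T0 or erlotinib libraries and against non-targeting guides. PPP1R15B, a regulatory subunit that brings phosphatase to eIF2, fell by 0.72 ± 0.10. Of 10 genes 3 rose and 1 fell, with a median of 0.11, or -0.04 against non-targeting guides. The higher calls numbered 2 without any 1 of the T0 or erlotinib libraries.

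Genes that feed this response or act on eIF2 were mostly lost. Of 20 cytosolic aminoacyl-tRNA synthetases, which load amino acids on tRNA, 19 fell and none rose, with a median of -0.48, and LARS (-1.13 ± 0.06), VARS (-0.97 ± 0.09), IARS (-0.82 ± 0.07) and FARSA (-0.81 ± 0.09) fell most. They were less depleted than in untreated: 10 of the 20 were higher under erlotinib and none lower, where 4.18% of all genes were higher. Against osimertinib 7 were higher and none lower, where 1.05% of all genes were higher and 0.287% lower. Of 17 mitochondrial synthetases none was called, with a median of 0.07, or -0.08 against non-targeting guides. Of 10 subunits of eIF2 and its exchange factor eIF2B, 7 fell and none rose, led by EIF2B5 (-0.93 ± 0.08), EIF2S1 (-0.84 ± 0.08), EIF2S3 (-0.79 ± 0.07) and EIF2B2 (-0.59 ± 0.07). Of 12 genes of Elongator and tRNA thiolation, which modify the wobble base of some tRNAs, 11 fell, among them ELP5 (-0.68 ± 0.07), MOCS3 (-0.64 ± 0.08), ELP3 (-0.58 ± 0.07) and ELP4 (-0.54 ± 0.06).

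Lipid anchors and sugar chains formed another depleted group. Of 11 genes of protein prenylation, which attaches isoprenoid anchors to small GTPases, 8 fell and none rose, with a median of -0.61. RABGGTB and RABGGTA, the subunits of the Rab geranylgeranyl transferase, fell, with L2FC of -1.81 ± 0.10 and -1.4 ± 0.07. HMGCS1, an enzyme of the mevalonate pathway, fell by 1.01 ± 0.06 and was lower than in untreated by 0.47 and lower than under osimertinib by 0.28. PGGT1B, a subunit of another geranylgeranyl transferase, fell by 0.77 ± 0.07, but was 0.05 and not called when the lowest 10% of guides was left out. Of 17 genes of the N-glycan precursor 9 fell, with a median of -0.22. GMPPB, which makes GDP-mannose, was the lowest of all genes tested (-2.29 ± 0.09, limma adjusted p = 1.9e-10), at -2.22 and -2.35 in the erlotinib libraries and -1.67 and -2.02 in untreated. ALG2 and ALG1, mannosyltransferases of the precursor, had L2FC of -1.57 ± 0.07 and -1.08 ± 0.07, and DHDDS, which makes its lipid carrier, of -1.41 ± 0.08. ALG1 was 0.49 higher under erlotinib than under osimertinib (limma adjusted p = 0.0025).

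Other genes among the most depleted serve basic cell functions. They included RANGAP1, the activator of the Ran GTPase (-1.78 ± 0.20), the zinc finger gene ZNF407 (-1.75 ± 0.11), the calcium pump ATP2A2 (-1.69 ± 0.11), the phosphoinositide phosphatase SACM1L (-1.62 ± 0.08) and SRP19 of the signal recognition particle (-1.61 ± 0.09). KIAA1432, whose product acts on RAB6 (-1.57 ± 0.09), CPSF3L, the Integrator nuclease (-1.54 ± 0.08), and WDR33 of the polyadenylation complex (-1.53 ± 0.11) were also in this group. Of the genes named here only ATP2A2 (-0.60) and SACM1L (-0.33) were lower than in untreated by the direct test (limma adjusted p = 0.00252 and 0.0163).

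Enriched genes outside the lists above included KCTD5, a substrate adaptor of cullin-3 (0.65 ± 0.07), the kinase MAP4K4 (0.56 ± 0.07), the histone methyltransferase SETD1B (0.48 ± 0.07), the deubiquitinase USP15 (0.47 ± 0.07) and the acetyltransferase CREBBP (0.47 ± 0.07). PPP4C, the catalytic subunit of phosphatase 4, rose by 0.59 ± 0.08, while untreated cells had values of -0.29 and -0.09. All but USP15 (0.25, limma adjusted p = 0.0511) were also higher than in untreated. Among 10 tested genes of PP2A-like phosphatases 2 rose, the other being the regulator TIPRL (0.40 ± 0.07), and 2 fell, IGBP1 (-0.54 ± 0.08) and the catalytic subunit PPP2CA (-0.45 ± 0.07), with a median of 0.02, or -0.13 against non-targeting guides.

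**Figure D3:**
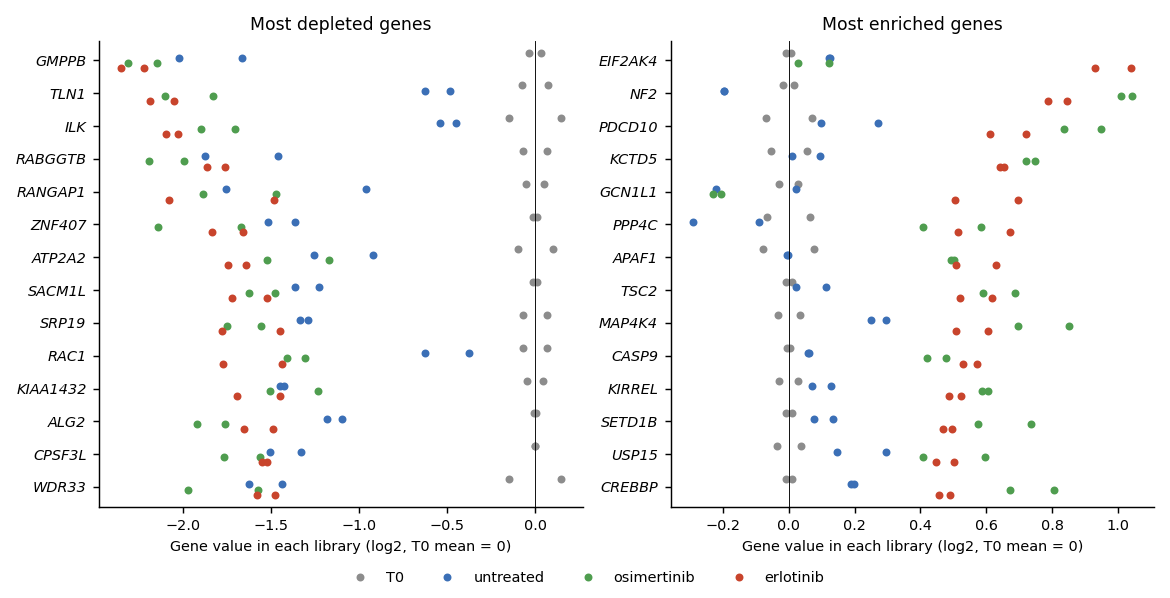
Values of each library on a log2 scale relative to the mean of the T0 libraries (x axis), for 14 of the most depleted genes and 14 of the most enriched genes (rows) in T0, untreated, osimertinib and erlotinib. TLN1, ILK and RAC1 have untreated values well above the erlotinib values, CPSF3L and WDR33 have both close together, and EIF2AK4 and GCN1L1 are high in the erlotinib libraries while osimertinib lies near or below T0.

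Core machinery was depleted widely. All 8 subunits of the CCT chaperonin fell, with a median of -0.74, and CCT2 (-1.18 ± 0.11), CCT5 (-0.80 ± 0.07) and CCT7 (-0.76 ± 0.09) were lowest beside CCT6A. Of 56 spliceosome genes 52 fell, led by LSM7 (-1.46 ± 0.07), TXNL4A (-1.38 ± 0.10), DHX15 (-1.37 ± 0.08) and PRPF38B (-1.21 ± 0.11). Of 29 RNA polymerase subunits 25 fell, among them POLR2L (-1.14 ± 0.13), POLR2E (-0.91 ± 0.12) and POLR3A (-0.81 ± 0.09). Of 78 listed genes of the cytosolic ribosome only 54 could be tested, and the rest have no gene value. Of the 54 tested 43 fell, among them RPS18 (-0.80 ± 0.10) and RPL12 (-0.79 ± 0.08). Of 33 proteasome genes 26 fell, with PSMA4, PSMA5, PSMA6 and PSMA3 between -0.77 and -0.65. None of these 5 lists had a gene called higher.

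Cell division genes were also lost while the drug was present. Of 54 DNA replication genes 34 fell and 1, POLE4, rose (0.29 ± 0.07), and MCM5, CDC45, MCM4 and TIMELESS each fell by 0.84. POLE4 was not called against non-targeting guides, nor without T0 library 2 or erlotinib library 2. Of 20 genes of the mitotic spindle and its checkpoint 17 fell, with a median of -0.48, led by BUB3 (-1.07 ± 0.08), SPC25 (-0.74 ± 0.07), TPX2 (-0.72 ± 0.07) and NUF2 (-0.62 ± 0.07). TPX2, which nucleates spindle microtubules, was lower than in untreated by 0.59 and lower than under osimertinib by 0.36 (limma adjusted p = 6.1e-05 and 0.022). In all 6 of the 20 spindle genes were lower than in untreated and none higher, where 2.83% of all genes were lower and 4.18% higher. Of the 54 DNA replication genes 1 was lower than in untreated and 7 were higher. Of 12 cohesin genes 3 fell, SMC3 (-0.46 ± 0.07), RAD21 (-0.35 ± 0.08) and SMC1A (-0.31 ± 0.07), and 1 of the 12 was called without T0 library 1. RAD21 was -0.15 and not called when the lowest 10% of guides was left out.

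At the G1/S transition, RB1, the pocket protein that restrains E2F factors, rose by 0.37 ± 0.06. The CDK inhibitors CDKN2A (0.30 ± 0.07), CDKN1B (0.27 ± 0.07) and CDKN2B (0.24 ± 0.06) rose as well, but were not called against non-targeting guides. FBXO5, which holds back the anaphase-promoting complex, fell by 0.39 ± 0.09, but lost its call without T0 library 2 or erlotinib library 2, with DESeq2 on summed counts and with the lowest 10% of guides left out (-0.24). These 5 calls were made among 12 genes listed as inhibitors, FBXO5 as an inhibitor of the anaphase-promoting complex rather than of G1/S itself. The list median was 0.07, or -0.08 against non-targeting guides. The higher calls numbered 3 without T0 library 1, 1 without T0 library 2, 2 without erlotinib library 1 and 2 without erlotinib library 2. Of 12 promoters of the transition CCND1, cyclin D1 (-0.60 ± 0.12), and CDK2 (-0.27 ± 0.07) fell. CCND1 kept its call without any 1 library, while CDK2 lost it without T0 library 1 or erlotinib library 2. MYC fell by 0.71 ± 0.10, at -0.81 and -0.61 in the erlotinib libraries and -0.52 and -0.62 in untreated, and did not differ from untreated by the test (-0.14, limma adjusted p = 0.482).

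The checkpoint kinases ATR and CHEK1, which respond to damaged or stalled DNA, fell by 0.40 ± 0.07 and 0.38 ± 0.08. CHEK1 turned positive (0.06, not called) when the lowest 10% of guides was left out, and lost its call without erlotinib library 1.

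Mitochondrial genes were split. Of 47 subunits and factors of respiratory complex I none fell and 4 rose, FOXRED1 (0.31 ± 0.06), NDUFS7 (0.25 ± 0.07), NDUFAB1 (0.24 ± 0.07) and NDUFS1 (0.22 ± 0.07), and none was called higher against non-targeting guides. Without T0 library 1 or erlotinib library 1 a single gene of the 47 was called. Of 76 mitochondrial ribosome genes 8 rose and 2 fell, MRPL19 being highest (0.40 ± 0.07), and the higher calls numbered 2, 1, 2 and 4 without T0 library 1, T0 library 2, erlotinib library 1 and erlotinib library 2. The medians were 0.07 and 0.06, and -0.09 for both against non-targeting guides. Of 31 genes of complexes II to V 6 fell, led by the succinate dehydrogenase subunit SDHB (-0.86 ± 0.07), and of 16 genes of mitochondrial protein import 7 fell, led by the processing peptidase PMPCA (-0.64 ± 0.07). PMPCA was 0.91 higher than in untreated (limma adjusted p = 4.9e-07). The import count was 4 without erlotinib library 1 and 4 without erlotinib library 2.

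**Figure D4:**
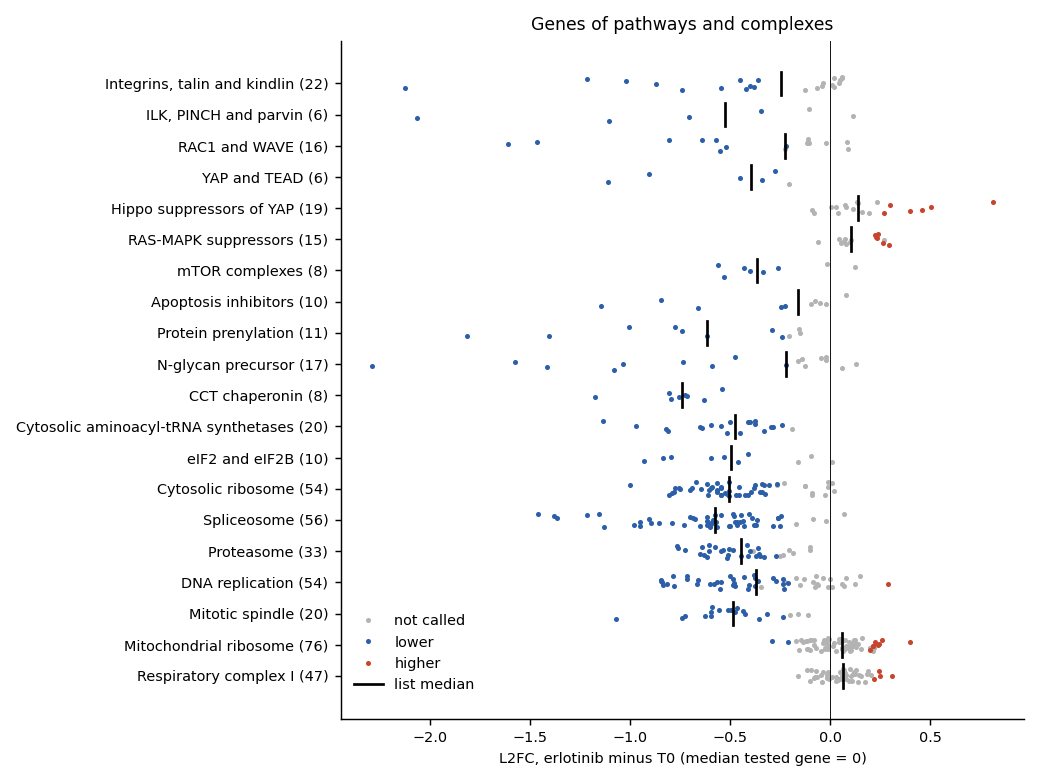
Members of 20 gene lists (rows), each point 1 tested gene at its log2 fold change from T0 to erlotinib (x axis), coloured by call, with a bar at the list median. The CCT chaperonin, the spliceosome and prenylation lie almost wholly below 0, the Hippo suppressors reach 0.82 above it, and adhesion lists stretch to below -2.

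Several complexes of protein modification and transcription were depleted. Of 9 COP9 signalosome genes, which remove NEDD8 from cullins, 7 fell, led by COPS2 (-0.87 ± 0.07) and COPS6 (-0.83 ± 0.09). In the NEDD8 pathway 4 of 17 fell, among them the adaptor DDB1 (-0.93 ± 0.07), and 2 rose, FBXW7 (0.34 ± 0.08) and DCUN1D1 (0.27 ± 0.07), neither of which was called against non-targeting guides. DCUN1D1 also lost its call without either T0 library or erlotinib library 1. Without erlotinib library 1 the counts were 2 and 1. Of 9 N-terminal acetyltransferase genes 7 fell, among them NAA38 (-0.79 ± 0.08) and NAA10 (-0.51 ± 0.10), and NAA10 was 1.04 higher than in untreated (limma adjusted p = 5.6e-06). Of 32 Mediator genes 11 fell, led by MED14 (-0.86 ± 0.07), with 7, 6, 6 and 7 called without T0 library 1, T0 library 2, erlotinib library 1 and erlotinib library 2. GPX4, the peroxidase that protects membranes from ferroptosis, fell by 0.51 ± 0.06 and was 0.29 lower than under osimertinib (limma adjusted p = 0.035).

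Apart from 60S ribosome maturation and rescue, the remaining lists had few calls against T0. Of 11 genes of 60S ribosome maturation and rescue 4 fell, against 10.7% of all genes, led by ABCE1, which recycles ribosomes (-0.76 ± 0.07), and 2 were called lower without T0 library 2. In direct comparison 9 of the 11 were higher than in untreated, against 4.18% of all genes. Of 7 pentose phosphate genes 2 fell, the dehydrogenase PGD (-0.77 ± 0.07) and PGLS (-0.29 ± 0.08), and RPIA rose (0.24 ± 0.07), a call lost without any 1 of the T0 or erlotinib libraries. PGLS lost its call without T0 library 2 or erlotinib library 1 (-0.17) and with edgeR or DESeq2 on summed counts (-0.17 with both). NFE2L2, the NRF2 factor of oxidative stress, fell by 0.33 ± 0.07 as 1 of 5 genes of its pathway and was 0.43 higher than under osimertinib (limma adjusted p = 0.0041). Of 27 SWI/SNF genes 3 fell and 1, SMARCD1, rose (0.32 ± 0.06), shares close to the 10.7% lower and 2.98% higher among all genes, and without T0 library 1 or erlotinib library 1 a single gene was called lower. Of 29 SAGA and TFIID genes 4 fell and 1 rose, also close to the shares among all genes, and none was called without T0 library 2. Against untreated, however, 12 of these 29 were higher and 2 lower, where 4.18% and 2.83% of all genes were called. By the same direct test 4 of the 7 pentose phosphate genes were higher and 1 lower. Among the 27 SWI/SNF genes 5 were higher than in untreated and none lower. Of 10 TGF-beta and SMAD genes 1 fell and 2 rose, and none was called without T0 library 1, T0 library 2 or erlotinib library 1.

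Olfactory receptors, which PC9 cells are not known to need, give a measure of the calls among genes with no known role. Of 327 tested, 13 were lower and 7 higher, or 3.98% and 2.14%, with a median of 0.02, or -0.13 against non-targeting guides. Their values ranged from -0.32 to 0.32. Without T0 library 2 the counts were 3 and 2. Against non-targeting guides they were 111 lower and 1 higher, where 41% and 0.304% of all genes were called. Of 17 core autophagy genes BECN1 was called lower (-0.27 ± 0.06) and none higher, a smaller share than the 10.7% lower among all genes, and none was called without T0 library 1 or erlotinib library 1.

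Values in untreated and osimertinib cells share the T0 libraries with the changes above, so the direct tests against erlotinib are the measure of difference. Knockouts of 503 genes (2.83%) were lower and of 743 (4.18%) higher under erlotinib than in untreated. The integrin, ILK and spindle lists had calls on the lower side alone, and the synthetase, ribosome (16 of 54) and RNA polymerase (12 of 29) lists on the higher side alone. Untreated cells were passaged and grew without drug over the same 72 h, so the number of divisions and the drug cannot be told apart in this comparison. Between erlotinib and osimertinib, which differed in dose as well as in drug, 51 genes were lower and 187 higher under erlotinib. EIF2AK4 and GCN1L1 were higher, and BCL2L1, FGFR1 and TPX2 were lower.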

How the data were processed

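Guide abundance was measured by sequencing in 8 libraries of PC9-Cas9 cells, 2 in each group. Per the labels and methods, the authors amplified guides by 2 rounds of PCR, aligned reads to the library with 1 mismatch allowed, and deposited raw read counts per guide. The methods name Bowtie2, and the submitters' processing notes Bowtie 1.3.1. The deposited counts hold 71090 guides for 18053 gene names and 142 non-targeting guides. A spreadsheet had changed 50 gene names, of which 47 were restored and 3, with 9 guides, left out.

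The lowest 5% of guides by mean were removed, which left 67526. Guides were tested with edgeR 4.0.16 (quasi-likelihood, TMM). For genes, log2 CPM (prior count 1) was centred on each guide's mean, the median over at least 2 guides was taken, the median of all genes in each library was subtracted, and limma 3.58.1 (R 4.3.3) was fitted to all 8 libraries. Calls had a Benjamini-Hochberg adjusted p under 0.05 over all 17760 genes. The study's resampling of non-targeting guides was not used. Reads carry no molecular identifiers, and nothing in the labels shows how independent the paired cultures were, so p-values measure the spread between libraries, which may be technical. The steps were tested on simulated data. Alternatives changed the reference, the filter, the gene summary, the tool (DESeq2 1.42.0 among them) and the libraries.

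The gene lists and tests were chosen with earlier results of these data known. Named genes were the 15 largest changes in each direction with at least 3 guides, all of 1 sign, called against both references, a set of signalling and cell death genes, and up to 4 called genes in each direction of a list. Not all genes that meet the rule are described, and some are not reported here. Guide sequences were not analysed here, and the labels give osimertinib at 0.1 µM only.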

Additional observations from a re-analysis of the deposited data

How the results depend on the processing

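Counts of genes higher under erlotinib depended most on the processing. With non-targeting guides as the reference 7281 genes were lower and 54 higher than at T0. With only the erlotinib and T0 libraries fitted 846 were higher, with edgeR on summed counts 1320, and with DESeq2 on summed counts 917. At the guide level, scaling to non-targeting guides gave 12036 lower and 145 higher, DESeq2 gave 516 higher, and the erlotinib and T0 libraries alone gave 1983 higher. Leaving out 1 library at a time gave 1363 to 2141 genes lower and 155 to 718 higher than at T0, 213 to 695 lower and 384 to 902 higher than in untreated, and 5 to 55 lower and 38 to 209 higher than under osimertinib. It gave 1911 to 4593 guides lower and 234 to 1637 higher. The lowest counts against untreated came without untreated library 1 (213) and erlotinib library 1 (384), and those against osimertinib without erlotinib library 1 (5 and 38). The cause was not tested.

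Of 4417 values for 222 named genes under the alternatives, 4135 kept their direction and side of the threshold, 273 lost the call, 1 gained it and 8 changed sign. PGGT1B was 0.054 and CHEK1 0.056 with the lowest 10% of guides removed, and CHEK1 was 0.015 with edgeR and 0.013 with DESeq2 on summed counts. ERBB3, not called in the main fit, was 0.0095 with the mean over guides, 0.011 with edgeR and 0.0093 with DESeq2, and -0.083 to 0.039 with 1 library left out. The 1 call gained was that of ERBB3, lower against non-targeting guides (-0.17, limma adjusted p = 0.048). By that reference 41% of all genes were lower.

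With the replicate number as a replicate block, 1911 genes were lower and 505 higher than at T0, 499 and 735 against untreated, 48 and 192 against osimertinib, and 3628 and 944 guides. The labels do not say whether the numbers pair the libraries. Differences between libraries 1 and 2 correlated across guides with r = 0.0101 between T0 and erlotinib. No shared replicate effect was visible, which does not exclude pairing. Each group has 2 libraries, and guides with few reads, such as those of EGFR, limit single-guide calls.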
